A study of Homo sapiens with 12 samples.

Results

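The genes described here are 9 genes of the insulin signalling pathway of the adipocyte: INSR, IRS1, IRS2, PIK3R1, AKT2, TBC1D4, PDE3B, GRB14 and SLC2A4. They were taken by symbol, as genes with a known role in insulin action, from the 28901 named genes in the count table. The choice was made with earlier results of these data known. All 9 had a row, 8 passed the low-count filter and were tested, and GRB14 held 1 count in all and was not tested.

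RNA-seq was done on ASC52telo hTERT cells, a commercial human adipose-derived stromal line immortalised with telomerase, differentiated to adipocytes and collected on day 14. The cells carried a lentiviral vector (pLVX-shRNA2, with ZsGreen as the sorting marker) expressing either a scramble shRNA or an shRNA against linc-ADAIN, a long intergenic non-coding RNA (KD), and were left without LPS or given LPS, a bacterial endotoxin, at 100 ng/mL for 4 h. The 4 groups, called scramble, scramble + LPS, KD and KD + LPS, had 3 libraries each. All cells grew first in differentiation medium with insulin, dexamethasone, isobutylmethylxanthine and rosiglitazone and then in maintenance medium with insulin and dexamethasone, so no group was free of insulin. Each arm was 1 shRNA in 1 sorted line, and the labels do not say whether the 3 libraries of a group came from separate cultures. For KD against scramble, the study's figure legends give the RNA-seq as N = 1 in triplicate, so these libraries are replicates of 1 experiment. All p-values here measure the spread between libraries, which may be technical, and not the spread between independent experiments. How far the shRNA lowered linc-ADAIN in these libraries was not analysed here, so KD stands for the sample label, which was not checked against its target.

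Insulin binds its receptor (INSR), a tyrosine kinase that phosphorylates the docking proteins IRS1 and IRS2. These recruit phosphatidylinositol 3-kinase, whose main regulatory subunit is PIK3R1, and the lipid it makes activates the kinase AKT2. In adipocytes AKT2 phosphorylates TBC1D4 (AS160), which releases vesicles carrying the glucose transporter GLUT4 (SLC2A4) to the cell surface, while the cAMP phosphodiesterase PDE3B mediates the antilipolytic action of insulin. GRB14 is an adaptor that binds and inhibits the activated receptor.

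On GRCh38 (GENCODE release 44), the genes lie apart from each other. INSR is on chromosome 19 at 7112255-7294414 on the minus strand, and AKT2 is on the same chromosome at 40230317-40285536, also minus. IRS1 is on chromosome 2 at 226731312-226799820 (minus) and GRB14 on chromosome 2 at 164492417-164621482 (minus). IRS2 (109752695-109786583) and TBC1D4 (75283503-75482169) are both on the minus strand of chromosome 13. PIK3R1 is on chromosome 5 at 68215740-68301821 (plus), PDE3B on chromosome 11 at 14643804-14872044 (plus), and SLC2A4 on chromosome 17 at 7281718-7288257 (plus).

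The promoters of 3 genes that passed the test between KD and scramble, IRS2, PIK3R1 and IRS1, are shown as the 250 bases before the RefSeq start (GRCh38.p14), 5′ to 3′ on the strand of the gene. Capitals mark matches on either strand to GGGCGG (GC box), CCAAT, and CAAAACA (the core of the insulin response element, which reads TGTTTTG on the other strand); neighbouring GC boxes can overlap by a base. The RefSeq table had an entry for 6 of the 9 genes and none for TBC1D4, PDE3B and SLC2A4; PIK3R1 has 4 starts, of which the first is shown.
IRS2 (chr13:109786584-109786833, minus strand): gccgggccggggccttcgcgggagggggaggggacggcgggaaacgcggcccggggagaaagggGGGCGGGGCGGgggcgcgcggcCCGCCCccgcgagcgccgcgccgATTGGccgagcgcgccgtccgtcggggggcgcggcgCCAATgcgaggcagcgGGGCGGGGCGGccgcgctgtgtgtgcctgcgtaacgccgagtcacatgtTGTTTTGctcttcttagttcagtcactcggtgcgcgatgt
IRS1 (chr2:226799821-226800070, minus strand): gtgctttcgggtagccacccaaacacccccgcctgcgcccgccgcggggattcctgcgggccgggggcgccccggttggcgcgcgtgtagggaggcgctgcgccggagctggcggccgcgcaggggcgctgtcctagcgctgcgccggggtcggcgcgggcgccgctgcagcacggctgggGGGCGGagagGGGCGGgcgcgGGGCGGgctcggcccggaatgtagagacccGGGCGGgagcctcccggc
PIK3R1 (chr5:68215506-68215755, plus strand): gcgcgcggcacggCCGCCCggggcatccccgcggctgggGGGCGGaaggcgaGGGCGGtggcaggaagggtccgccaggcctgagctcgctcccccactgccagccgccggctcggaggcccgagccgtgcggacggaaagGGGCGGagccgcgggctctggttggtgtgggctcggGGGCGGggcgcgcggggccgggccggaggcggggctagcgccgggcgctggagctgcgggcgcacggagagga
All 3 windows were GC-rich, at 76.4% for IRS2, 80.8% for IRS1 and 81.6% for PIK3R1. GC boxes numbered 5 in IRS2, 4 in IRS1 and 5 in PIK3R1, and 42.6% of the 35116 promoter windows in the table held at least 1. IRS2 alone of these 3 held the insulin response core, as TGTTTTG beginning 40 bases before the start, and 4.3% of all windows held that motif. CCAAT was present in IRS2 at 2 places, with 32% of all windows holding it. These are matches of letters and were not tested for binding.

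The 12 libraries held 28.4 M to 53.8 M estimated counts. Replicates of a group correlated at r = 0.977 to 0.99 in log2 CPM (counts scaled to the library total times its TMM factor) across 11811 genes, which are not independent replicates. The first principal component (57.6% of the variance) separated the shRNAs and the second (16.1%) the LPS treatment, and all 8 LPS response genes checked were higher with LPS in both shRNAs. Of 10 adipocyte markers, 8 were well covered, among them ADIPOQ (adiponectin) and FABP4, while LPL and LEP averaged under 50 counts in every group. The summed level of these 10 markers was 3200 to 4427 CPM in scramble and 3702 to 4288 in scramble + LPS, but 641.9 to 1880 in KD and 519.4 to 1206 in KD + LPS. Of the 10, 7 were lower in KD without LPS and 8 with LPS (edgeR quasi-likelihood test, adjusted p under 0.05), and none was higher. The study reports the opposite direction in adipocytes of this line. By qPCR and western blot it found adipogenic markers raised by the knockdown, among them PPARG, FABP4 and adiponectin. The reason for this difference was not tested. For 8 stromal markers the sum was 5862 to 7264, 5560 to 6281, 7792 to 9286 and 8661 to 9930 CPM in the same order of groups, with DLK1 at 0, and 3 of the 7 tested were higher and 3 lower in KD in each condition. Macrophage markers summed to 57.3 to 60.5 CPM in scramble, 60.9 to 71.9 in scramble + LPS, 88.5 to 117 in KD and 79.8 to 107 in KD + LPS; CD163 was higher in KD (log2 3.99 without LPS, 4.11 with) and CD68 lower (-0.78 and -1.25), while PTPRC, CSF1R, ITGAM, MRC1 and ADGRE1 averaged under 50 counts. Endothelial markers summed to 23.6 to 27.1, 15.3 to 17, 11.8 to 12.3 and 8.45 to 13.2 CPM in the same order of groups. VWF was lower in KD (log2 -2.12 without LPS, -2.77 with), as was TEK (-1.79 and -0.80), and PECAM1 was lower with LPS (-0.72). KDR was higher in KD with LPS (log2 4.89, adjusted p = 3.4e-05, edgeR), at 94 to 120 counts per library against 2 to 6 in scramble + LPS. Averaged over the 12 libraries, CDH5 and KDR were under 50 counts. The part of these shifts in the results below was not tested. In bulk samples, fewer adipocytes and less RNA per adipocyte cannot be told apart.

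Levels between genes were compared per length, as CPM per kb of the MANE Select transcript, the reference transcript agreed by RefSeq and Ensembl. In scramble, PIK3R1 (19.3 CPM per kb) and AKT2 (17) were highest, and their libraries overlapped. IRS1 followed at 7.78, then TBC1D4 at 2.68, PDE3B at 2.04 and INSR at 1.87, of which PDE3B and INSR overlapped. IRS2 was far lower at 0.629 and SLC2A4 at 0.0771 CPM per kb, and GRB14 had no count. Of the docking proteins, IRS1 had the more abundant message, with no overlap. The upper part of this order depends on the length used: per kb of the union of all exons, scramble had 8.26 for PIK3R1, 7.58 for IRS1 and 5.62 for AKT2.

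In KD, per kb of the MANE transcript, AKT2 was 16.4, PIK3R1 9.33 and IRS1 8.01, with no overlap between neighbours. Per kb of the exon union the order was instead IRS1 at 7.82, AKT2 at 5.41 and PIK3R1 at 3.99. IRS2 reached 1.98 CPM per kb and its libraries lay between those of TBC1D4 (2.25, overlapping) and PDE3B (1.18, separate). In KD + LPS, IRS2 at 2.87 CPM per kb overlapped INSR at 2.98.

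**Figure D1:**
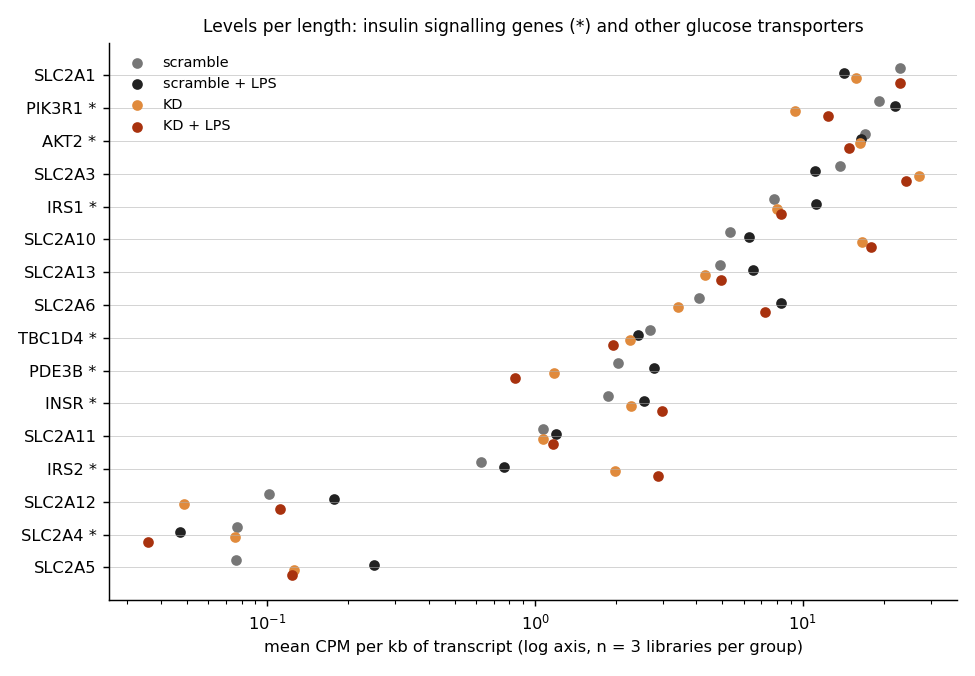
Mean CPM per kb of transcript on a log axis for 8 insulin signalling genes (stars) and 8 other glucose transporters, 1 point per group (n = 3 libraries each); GRB14 and transporters under 0.03 CPM per kb in any group are left out. SLC2A4 lies at 0.0357 to 0.0771 CPM per kb, far below SLC2A1 at 14.2 to 23.1.

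The first question was which insulin signalling genes differed between KD and scramble adipocytes. IRS2 was about 3-fold higher and PIK3R1 about 2-fold lower in KD, with and without LPS. PDE3B and IRS1 were also lower in KD among LPS-treated cells. INSR, AKT2, TBC1D4 and SLC2A4 passed the test in neither comparison. Without LPS, 2 of the 8 tested genes passed (1 higher, 1 lower), where 27.2% of all 16217 genes tested passed, 12.1% higher and 15.1% lower. With LPS, 4 passed (1 higher, 3 lower), against 26.9% of 15981 genes, 12.7% higher and 14.2% lower. The median log2 fold change of the 8 was -0.03 without LPS and -0.35 with LPS, beside 0.02 and 0.03 over all genes. Scaled by library size only, the median of all genes rose to 0.13 and 0.11, and the share of higher genes among those called went from 44.5% to 61.4% without LPS and from 47.2% to 59.2% with LPS, so changes are best read relative to that shift.

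IRS2, the docking protein that in scramble was the scarcer of the pair, stood at 5.51, 5.63 and 4.25 CPM in the scramble libraries and at 15.7, 15.1 and 17.6 CPM in KD. With LPS it was 5.16, 7.89 and 5.72 CPM in scramble and 22.8, 23.5 and 23.9 CPM in KD. Without or with LPS, the KD libraries were all above the scramble libraries. The difference was 3.16-fold without LPS (log2 1.66 ± 0.15 SE, n = 3 per group, adjusted p = 9e-06, edgeR quasi-likelihood test over all genes) and 3.75-fold with LPS (log2 1.91 ± 0.16, adjusted p = 1.2e-06). It kept its direction and side of the threshold in every alternative run, with log2 values from 1.53 to 2.10.

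PIK3R1, the regulatory subunit of phosphatidylinositol 3-kinase, was 147, 117 and 141 CPM in scramble and 61.3, 69.2 and 64.6 CPM in KD. After LPS it was 168, 142 and 151 CPM in scramble against 94.1, 79.6 and 85 in KD. The groups did not overlap in either comparison. KD was 2.07-fold lower without LPS (log2 -1.05 ± 0.10, adjusted p = 8.5e-06, edgeR) and 1.78-fold lower with LPS (log2 -0.84 ± 0.09, adjusted p = 1.3e-05).

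IRS1, the other docking protein, was 81.4, 71.8 and 74.8 CPM in scramble and 76.3, 74.4 and 84.2 CPM in KD, and the groups overlapped (log2 0.05 ± 0.08, adjusted p = 0.73, edgeR). With LPS the scramble libraries were at 105, 118 and 104 CPM and the KD libraries at 77.2, 81.7 and 84.4 CPM, all lower. That difference was 1.34-fold (log2 -0.43 ± 0.08, adjusted p = 0.0018, edgeR).

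**Figure D2:**
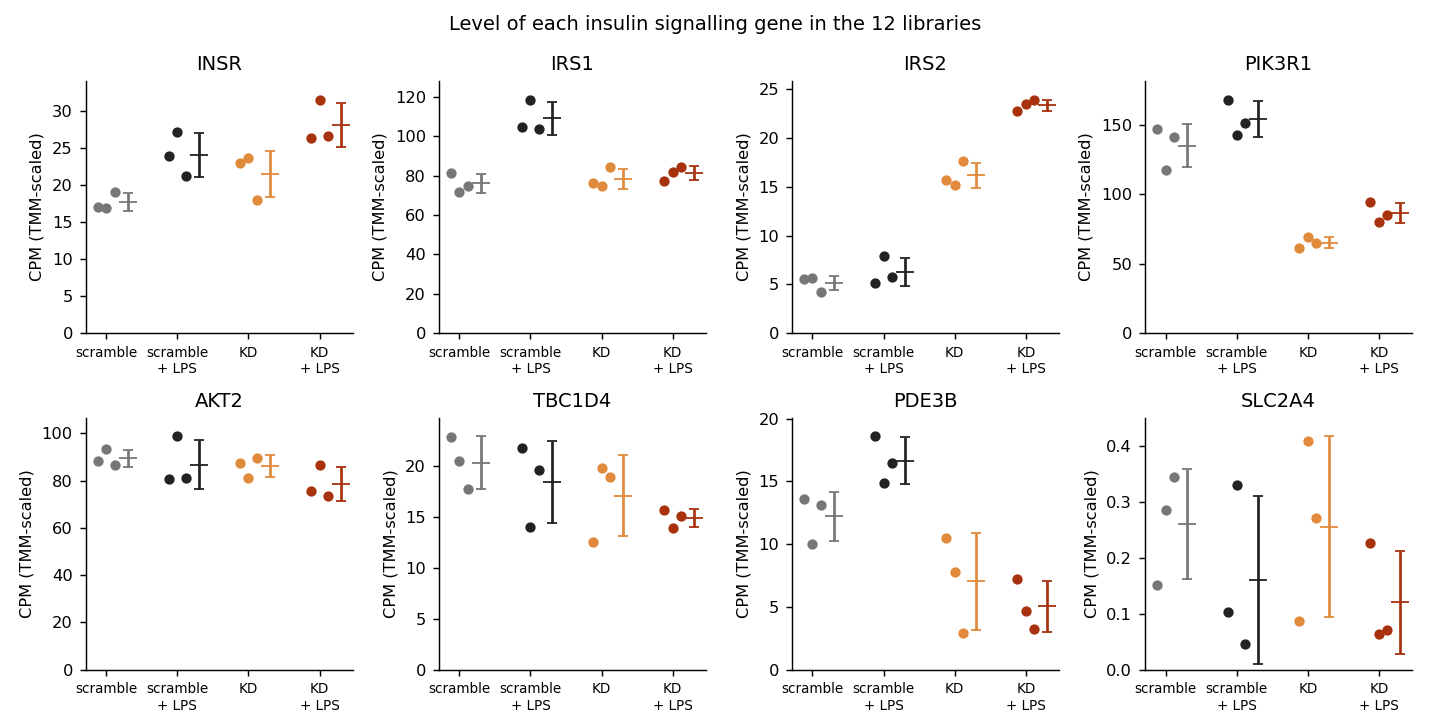
CPM (TMM-scaled) of 8 genes in each library, with the group mean and SD (n = 3) to the right of the points; GRB14, with 1 count in all, is left out. At either LPS condition the KD points are above the scramble points for IRS2 and below them for PIK3R1, and IRS1 is highest in scramble + LPS.

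PDE3B was 13.6, 9.98 and 13.1 CPM in scramble and 10.5, 7.8 and 2.89 in KD, where the libraries were spread widely (CV 54.6%) and overlapped scramble at 1 end. Without LPS the difference missed the threshold (log2 -0.79 ± 0.34, adjusted p = 0.11, edgeR). Without KD replicate 1 it was -1.18 with adjusted p = 0.027, without KD replicate 3 it was -0.42 with adjusted p = 0.15, and over all alternatives adjusted p ranged from 0.027 to 0.22. With LPS, PDE3B was 18.6, 14.9 and 16.5 CPM in scramble and 7.21, 4.71 and 3.23 CPM in KD. The groups did not overlap, and KD was 3.29-fold lower (log2 -1.72 ± 0.24, adjusted p = 0.0001, edgeR).

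Within the KD groups, but not within the scramble groups, the adipocyte marker sum and PDE3B were in the same order over libraries. In KD replicates 1, 2 and 3 the sum was 1880, 1420 and 641.9 CPM beside the PDE3B levels above, and in KD + LPS it was 1206, 833.2 and 519.4 CPM. The sums were 3200, 3638 and 4427 CPM in scramble, and in scramble + LPS they were 3702, 4288 and 3960 CPM, where PDE3B was in the opposite order. Per 1000 CPM of adipocyte markers, PDE3B was 2.74 to 4.25 CPM in scramble, 3.47 to 5.02 in scramble + LPS, 4.5 to 5.58 in KD and 5.65 to 6.23 in KD + LPS. This ratio depends on the markers taken, as the sum was mostly FABP4 and ADIPOQ (means of 1981 and 919 CPM in scramble). With LPS, CEBPA (log2 -0.79) and PPARG (-1.59) fell less in KD than PDE3B did (-1.72). The other well covered markers fell further (log2 -1.88 to -2.45). The part of the marker change in the PDE3B result was not tested.

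**Figure D3:**
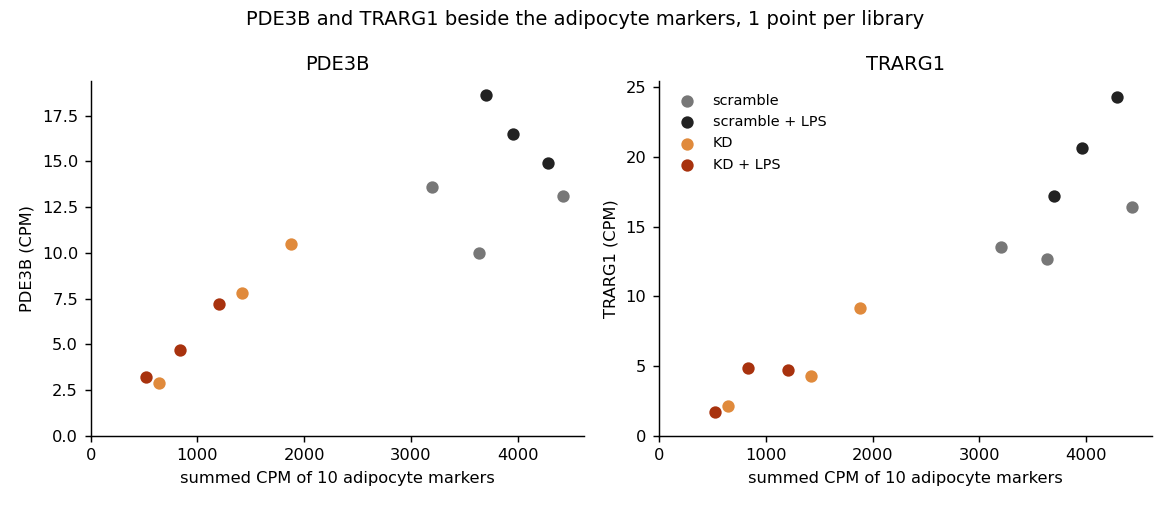
PDE3B (left) and TRARG1 (right) in CPM against the summed CPM of 10 adipocyte markers, 1 point per library, coloured by group. The marker sum of the 6 KD libraries, with or without LPS, is at most 1880 CPM, and that of the 6 scramble libraries is at least 3200.

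The receptor INSR was 17.1, 16.9 and 19.1 CPM in scramble and 23.1, 23.7 and 18 CPM in KD (log2 0.29 ± 0.13, adjusted p = 0.12, edgeR). Without KD replicate 3 the value was 0.41 with adjusted p = 0.024, and by library size only it was 0.40 with adjusted p = 0.036. With LPS the values were 23.9, 27.2 and 21.3 CPM in scramble and 26.4, 31.6 and 26.6 CPM in KD, which overlapped (log2 0.23 ± 0.12, adjusted p = 0.21).

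AKT2, the kinase through which the insulin signal reaches GLUT4, stood at 73.3 to 98.7 CPM over all 12 libraries. Its KD difference was -0.05 ± 0.08 without LPS (adjusted p = 0.68, edgeR) and -0.14 ± 0.10 with LPS (adjusted p = 0.34, edgeR), on the log2 scale. TBC1D4 ranged from 17.7 to 22.8 CPM in scramble, 13.9 to 21.7 in scramble + LPS, 12.5 to 19.8 in KD and 13.9 to 15.7 in KD + LPS. Its difference was -0.25 ± 0.17 without LPS (adjusted p = 0.31, edgeR) and -0.31 ± 0.16 with LPS (adjusted p = 0.18, edgeR). Without scramble + LPS replicate 2, the lowest of its group, the second became -0.48 with adjusted p = 0.021, and without replicate 1 of that group -0.18 with adjusted p = 0.51.

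SLC2A4, which encodes GLUT4, was near the limit of detection in every group. The scramble libraries held 8, 15 and 16 counts and the scramble + LPS libraries 4, 10 and 2. KD held 3, 22 and 11 counts, and KD + LPS held 8, 3 and 2. All groups overlapped, and the KD difference was -0.01 ± 0.99 without LPS and -0.38 ± 1.49 with LPS (adjusted p = 1 and 0.89, edgeR). Differences in SLC2A4 were therefore not detectable at these counts, and its direction turned in several alternatives. The study reports GLUT4 mRNA and protein as raised by the knockdown, and these counts are too few to compare with that. The floor of 3 counts per library corresponds to 0.0557 to 0.105 CPM, for counting error only. GRB14 was at 0 in 11 of the 12 libraries and at 1 count in KD replicate 1, so its level was at or under that floor throughout.

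**Figure D4:**
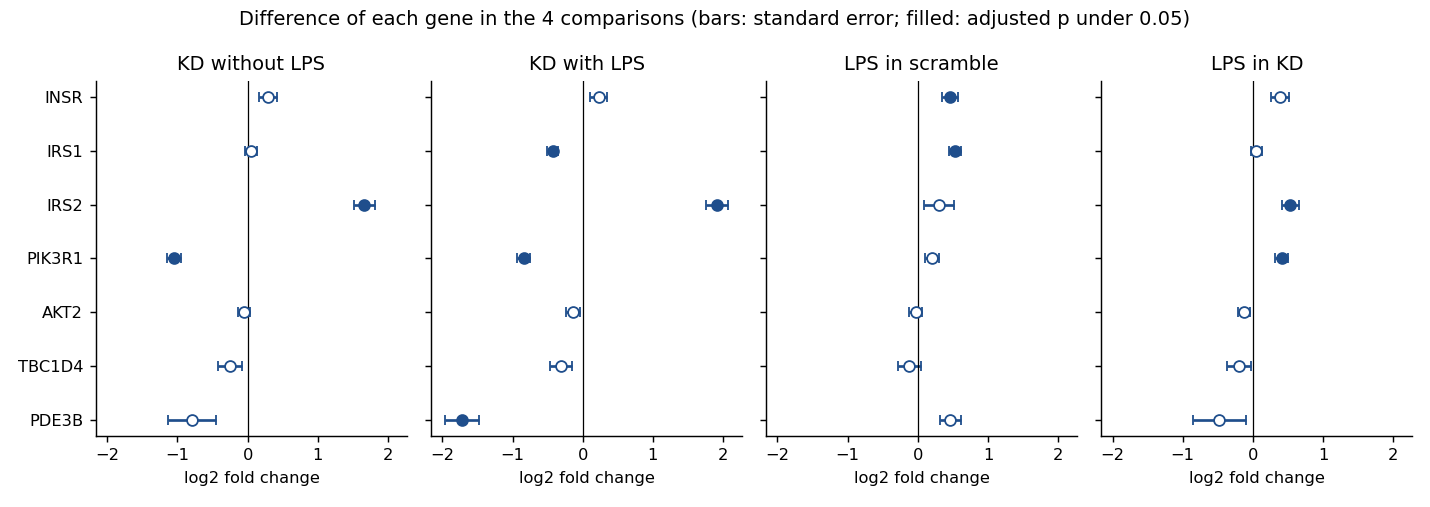
Log2 fold change (points) with standard error (bars) of 7 genes in the 4 comparisons, n = 3 libraries per group; filled points have an adjusted p under 0.05 over all genes. SLC2A4 is left out because its standard errors were 0.99 to 1.49. In both KD comparisons IRS2 is the point furthest to the right and PIK3R1 is filled on the left, and in KD with LPS PDE3B (-1.72) is further left than PIK3R1 (-0.84).

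The second question was how the same genes responded to LPS within each shRNA. In scramble, IRS1 and INSR were higher after LPS, and in KD it was IRS2 and PIK3R1. Among the 8 tested genes 2 passed in scramble, both higher, against 14.3% of 15920 genes (5.9% higher, 8.38% lower). In KD 2 passed, both higher, against 11.3% of 16169 genes (5.32% higher, 6.03% lower). Scaled by library size only, the share of higher genes among those called in KD went from 46.9% to 35.2%. The median log2 fold change of the 8 was 0.25 in scramble and -0.04 in KD, beside 0.02 and 0.01 over all genes. The LPS and KD comparisons share libraries and are not independent of each other.

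IRS1 rose 1.45-fold with LPS in scramble (log2 0.53 ± 0.08, adjusted p = 0.0012, edgeR), with all 3 treated libraries above all 3 untreated ones, and in KD the value was 0.05 ± 0.08 (adjusted p = 0.8, edgeR). The difference between these responses was -0.47 ± 0.12 (adjusted p = 0.057, edgeR interaction term over 17173 genes, of which 1.28% passed). It missed the threshold, but passed it with DESeq2 (adjusted p = 0.0058), with library size only (0.047), with no filter on low counts (0.025) and without KD replicate 2 (0.049). In the other alternatives, adjusted p reached 0.2. In the main edgeR fit none of the 8 genes passed in the interaction, and 1 (IRS1) was under an unadjusted p of 0.05. DESeq2 called 1.

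INSR rose 1.38-fold with LPS in scramble (log2 0.46 ± 0.11, adjusted p = 0.02, edgeR) without overlap. Left out in turn, scramble + LPS replicate 2 (adjusted p = 0.061), scramble replicate 1 (0.069) and scramble replicate 2 (0.096) each ended the call. In KD its libraries were also separate, but the value of 0.39 ± 0.13 did not pass (adjusted p = 0.079, edgeR). The responses in the 2 shRNAs differed by -0.06 ± 0.18 (adjusted p = 0.99, edgeR).

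IRS2 rose 1.45-fold with LPS in KD (log2 0.53 ± 0.12, adjusted p = 0.0091, edgeR), with the groups apart, and was 0.30 ± 0.21 in scramble (adjusted p = 0.41, edgeR). PIK3R1 rose 1.33-fold in KD (log2 0.41 ± 0.09, adjusted p = 0.0087, edgeR) and was 0.20 ± 0.10 in scramble (adjusted p = 0.22, edgeR). The PIK3R1 call was lost without KD + LPS replicate 1 (adjusted p = 0.056) and without KD replicate 1 (0.052). Neither response differed between shRNAs by the interaction test, at 0.25 ± 0.23 for IRS2 (adjusted p = 0.77, edgeR) and 0.22 ± 0.13 for PIK3R1 (adjusted p = 0.6, edgeR).

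PDE3B with LPS was 0.46 ± 0.15 in scramble, where the groups did not overlap (adjusted p = 0.056, edgeR), and -0.48 ± 0.38 in KD, where they did (adjusted p = 0.52). The scramble value passed with DESeq2 (adjusted p = 0.031), with no filter on low counts (0.034) and without scramble + LPS replicate 2 (0.049), but adjusted p was 0.44 in the fit on all 12 libraries and 0.22 without scramble replicate 2. The KD value ran from -0.86 without KD replicate 3 to -0.09 without KD replicate 1. The responses differed by -0.92 ± 0.46 (adjusted p = 0.48, edgeR). AKT2 was -0.03 ± 0.09 in scramble and -0.13 ± 0.09 in KD, and TBC1D4 -0.12 ± 0.16 and -0.20 ± 0.17. SLC2A4 was -0.71 ± 1.04 in scramble and -1.07 ± 1.38 in KD, on 2 to 22 counts.

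The wider pathway was described with 97 further genes in 6 lists: the cascade, its negative regulators, GLUT4 trafficking, glucose transporters, the antilipolytic arm and FOXO1 targets. Of 96 tested, 9 were higher and 28 lower in KD without LPS (38.5%, beside 27.2% of all genes tested), and of 95, 11 were higher and 32 lower with LPS (45.3%, beside 26.9%). LPS changed 19 of 96 in scramble (11 higher, 8 lower; 19.8%, beside 14.3% of all genes) and 19 of 95 in KD (13 higher, 6 lower; 20%, beside 11.3%). The counts in each list below stand beside the same shares over all genes. These were 12.1% higher and 15.1% lower in KD without LPS, and 12.7% and 14.2% with LPS. No list was tested as a set. The lists were chosen with earlier results of these data known, and how far that choice set their shares was not tested. All genes tested also include genes with low counts, where a difference is harder to call. The shares are therefore descriptions only.

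Among 27 other cascade genes, 2 were higher and 6 lower in KD without LPS, and 3 and 7 with LPS (all genes called in either direction: 27.2% and 26.9%). PIK3CD, a catalytic subunit of phosphatidylinositol 3-kinase, rose (log2 0.99 ± 0.20 without LPS, 1.05 ± 0.22 with), as did EIF4EBP1, the translation repressor below mTOR (0.74 ± 0.11 and 0.74 ± 0.12). RHEB, the GTPase that activates mTOR complex 1, fell (-0.51 ± 0.07 and -0.39 ± 0.08). PIK3R3, another regulatory subunit, was 3.4, 1.56 and 1.74 CPM in scramble and 7.52, 6.61 and 7.33 in scramble + LPS. In KD it was 3.72, 4.44 and 4.02 CPM, and 12.3, 14.9 and 12.4 with LPS. It thus rose with LPS in both shRNAs (log2 1.69 ± 0.28, adjusted p = 0.0018, and 1.70 ± 0.18, adjusted p = 1.3e-05, edgeR).

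Of 14 negative regulators, 2 were higher and 6 lower in KD without LPS, and 3 and 7 with LPS (all genes: 27.2% and 26.9%). PTPRF (LAR), a phosphatase that acts on the receptor, was 39, 47.3 and 49.6 CPM in scramble and 13.3, 13.8 and 10.9 in KD (log2 -1.83 ± 0.13, adjusted p = 8.6e-07, edgeR). ENPP1, an inhibitor of the receptor, fell by 0.81 on the log2 scale without LPS (lost without scramble replicate 2, adjusted p = 0.073, edgeR) and by 1.39 with LPS. The opposite held for TRIB3, a pseudokinase that binds AKT, at 10.1, 8.41 and 7.82 CPM in scramble and 30.6, 22.9 and 26.2 in KD (log2 1.60 ± 0.14, adjusted p = 6.8e-06, edgeR), and for PHLPP1, a phosphatase of AKT (1.51 ± 0.25, adjusted p = 0.00076).

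GLUT4 vesicle and trafficking genes, 27 in all, gave 9 lower and none higher in KD without LPS, and 8 lower and none higher with LPS (all genes: 15.1% and 14.2% lower, 12.1% and 12.7% higher). TRARG1, a protein of the GLUT4 vesicle, was 13.5, 12.7 and 16.4 CPM in scramble and 9.13, 4.27 and 2.1 in KD (log2 -1.46 ± 0.38, adjusted p = 0.012, edgeR); without KD replicate 2 the adjusted p was 0.061. With LPS it was 17.2, 24.3 and 20.6 CPM against 4.75, 4.86 and 1.72 (log2 -2.43 ± 0.29, adjusted p = 2.7e-05, edgeR). TRARG1 and the adipocyte marker sum were both lower in every KD library than in any scramble library, with or without LPS. Within groups, their orders over libraries matched in KD and in scramble + LPS, but not in scramble or in KD + LPS. The part of the marker change in the TRARG1 result was not tested. CBL (-0.69 ± 0.10) and SORT1, the sortilin of GLUT4 vesicles (-0.63 ± 0.09), fell without LPS.

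Glucose transporters other than GLUT4, 10 genes tested, gave 2 higher and 1 lower in KD without LPS and, of 9 tested with LPS, 3 higher (all genes: 27.2% and 26.9% in either direction). SLC2A10 (GLUT10) was 23.5, 21.7 and 22.4 CPM in scramble and 61.9, 67.5 and 80.8 in KD (log2 1.64 ± 0.11, adjusted p = 5.3e-07, edgeR). SLC2A3 (GLUT3), whose counts may be shared with its near-identical paralog SLC2A14, was 0.98 ± 0.11 higher in KD without LPS. SLC2A1, the transporter GLUT1 of most cells, was 72.5, 74.9 and 87.2 CPM in scramble and 52, 51.1 and 57.5 in KD, and so lower (log2 -0.54 ± 0.09, adjusted p = 0.00094, edgeR). With LPS the order was the other way, at 41.3, 53.8 and 48.8 CPM in scramble and 69.5, 81 and 84.3 in KD (log2 0.71 ± 0.11, adjusted p = 0.0003, edgeR).

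Of 11 genes in the antilipolytic arm, 2 were higher and 3 lower in KD without LPS, and 2 and 5 with LPS (all genes: 27.2% and 26.9%). PDE4B, a cAMP phosphodiesterase of another family than PDE3B, was 3.06, 3.46 and 4.04 CPM in scramble and 27.6, 31.1 and 31.5 in KD (log2 3.10 ± 0.14, adjusted p = 7.2e-08, edgeR). With LPS it was 3.96, 6.08 and 5.7 CPM against 82.4, 77.6 and 97.1 (log2 4.03 ± 0.16, adjusted p = 1.3e-09). PDE4D rose too (2.17 ± 0.28 without LPS), while PDE3A, the paralog of PDE3B (-1.15 ± 0.22), ABHD15, a partner of PDE3B (-0.96 ± 0.15), and PRKAR2B, a regulatory subunit of protein kinase A (-1.41 ± 0.34), fell. Within KD and within KD + LPS, PRKAR2B and ABHD15 were in the order of the adipocyte marker sum over libraries. PDE3A was not. The part of the marker change in these falls was not tested.

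FOXO1 and insulin target genes, 7 tested, gave 1 higher and 3 lower in KD without LPS and 5 lower with LPS (all genes: 15.1% and 14.2% lower). PDK4, the kinase that inhibits pyruvate dehydrogenase, was 244, 270 and 394 CPM in scramble and 136, 97.7 and 40.1 in KD (log2 -1.72 ± 0.33, adjusted p = 0.0021, edgeR). SREBF1, a lipogenic transcription factor that insulin induces, fell by 1.23 (SE 0.10). Within KD and within KD + LPS, PDK4 was in the order of the adipocyte marker sum over libraries, and SREBF1 was not. The part of the marker change in the PDK4 result was not tested. TXNIP, which restrains glucose uptake, was 0.56 ± 0.10 higher without LPS. In scramble, LPS raised PDK4 (1.12 ± 0.15), SESN3 (1.06 ± 0.19) and KLF15 (1.00 ± 0.15).

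**Figure D5:**
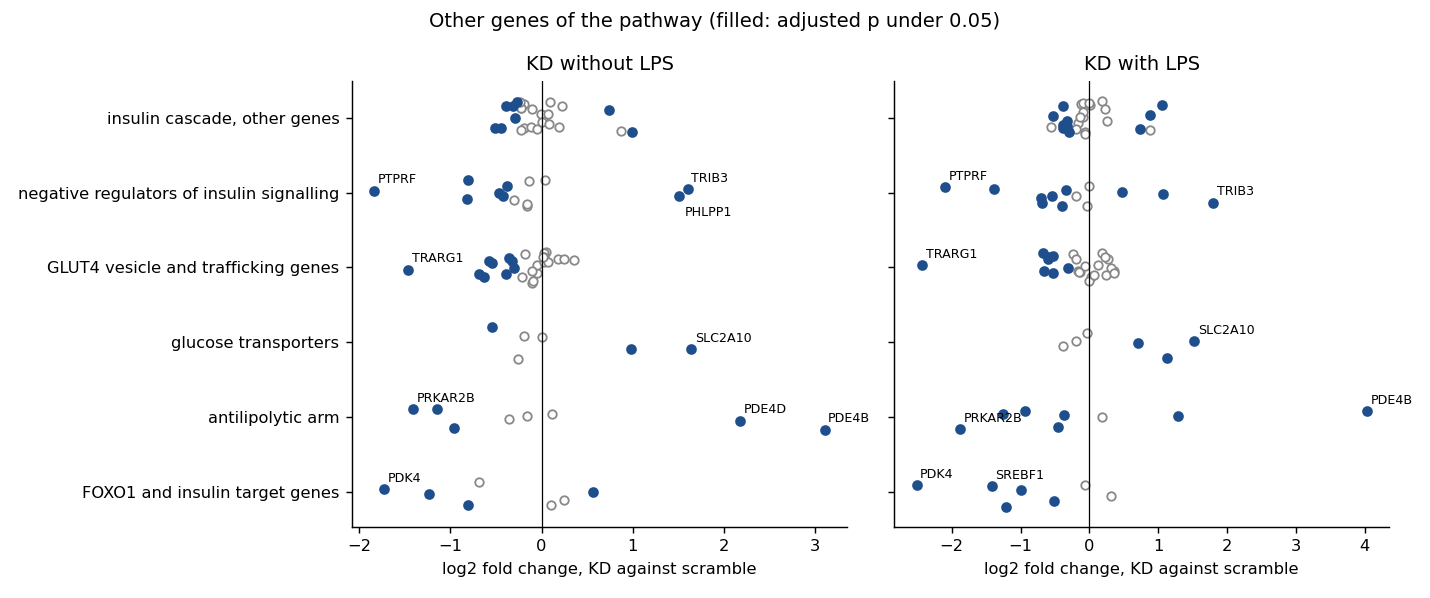
Log2 fold change of KD against scramble, without LPS (left) and with LPS (right), for genes of the 6 lists that averaged 50 counts or more, 1 point per gene and filled where adjusted p is under 0.05; names are given from 1.4 upwards in size. The GLUT4 trafficking genes that pass are all to the left, with TRARG1 furthest.

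The 5 genes whose pattern over the 12 libraries was most like that of SLC2A4 were NAP1L2, FYCO1, DHRS11, LRRC8E and RPL23AP7, by the root mean square difference of centred log2 CPM among 11811 genes. The nearest, NAP1L2, still differed by 0.484, where SLC2A4 varied by 0.775 around its own mean, so the likeness is weak and rests on sparse counts.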

How the data were processed

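Libraries were made from poly(A) RNA with a stranded kit. Per the study's methods and the submitters' processing notes, the authors ran bcl2fastq 2.19, quantified with kallisto 0.44.0 against GRCh38 transcripts and tested with DESeq2 1.32.0; the annotation release and the step from transcripts to genes are not given in the sources used here. The deposited values are estimated counts per gene, as whole numbers with no normalization. A row with no gene name (0.235 to 0.306% of counts) was left out.

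Here, each comparison was fitted on its own 6 libraries, and the interaction on all 12, with edgeR 4.0.16 (R 4.3.3; TMM scaling, quasi-likelihood F test) after keeping genes with at least 10 counts in all. P-values were adjusted by Benjamini-Hochberg over all genes tested, with a threshold of 0.05 and no minimum fold; standard errors come from the fold change and F. CPM values use TMM factors over 12 libraries. The step was tested on simulated data. Alternatives were DESeq2 1.42.0 (its size factors and its test), library size only, no filter and edgeR's own filter, a fit on all 12 libraries, a replicate block and each library left out.

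The 9 genes and the lists were chosen with earlier results of these data known. From each list, at most 3 genes that rose and 3 that fell most were named per comparison, among those passing with a mean of at least 50 counts and groups that did not overlap. Some genes that met this rule are not reported here.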

Additional observations from a re-analysis of the deposited data

Results flagged for a closer look

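The difference between KD and scramble was itself different with and without LPS for 2 genes of the wider lists. SLC2A1 was lower in KD without LPS and higher with LPS, and the KD difference with LPS minus that without was 1.25 on the log2 scale (adjusted p = 0.00025, edgeR interaction term). In scramble it fell with LPS (log2 -0.69 ± 0.11), and in KD it rose (0.55 ± 0.10). PDE4B was higher in KD in both conditions, and further so with LPS, with a difference of 0.94 (adjusted p = 0.03, edgeR interaction term). Groups of 3 libraries were too small to be searched for single outlying libraries.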

How the results depend on the processing

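Of 40 results for the 8 tested genes, 21 kept their direction and side of the threshold under every alternative, as did 66 of 90 results for named genes of the wider lists. IRS2 and PIK3R1 in KD, and IRS1 and PDE3B in KD with LPS, were among the former. Small values turned sign: by library size only, AKT2 in KD without LPS was 0.05, SLC2A4 0.10 and IRS1 with LPS in KD -0.00; with edgeR's filter, SLC2A4 in KD was 0.02. With single libraries left out, IRS1 in KD without LPS ran from -0.01 to 0.10, SLC2A4 from -0.52 to 0.39 without LPS and from -1.19 to 0.67 with LPS, and the LPS response in scramble from -0.13 to 0.02 for AKT2 and from -0.26 to 0.04 for TBC1D4. The interaction then ran from -0.20 to 0.04 for INSR, -0.17 to 0.01 for AKT2, -0.24 to 0.07 for TBC1D4 and -1.19 to 0.69 for SLC2A4. Also with single libraries left out, genes of the 9 passing numbered 2 to 3 (KD without LPS) and 4 to 5 (KD with LPS). They numbered 1 to 2 for LPS in each shRNA and 0 to 1 for the interaction. All genes passing then numbered 3181 to 4167, 3377 to 4033, 1187 to 2106 (LPS in scramble), 1285 to 1658 (LPS in KD) and 92 to 243. With every library kept, these were 4411, 4292, 2274, 1835 and 219. For the interaction, 1 of the 9 passed by library size only, DESeq2 and no filter, and 475 genes in all passed with DESeq2 and 431 with no filter, against 219. Per kb of the union of exons, levels in scramble were 1.63 for INSR, 8.26 for PIK3R1, 5.62 for AKT2 and 1.05 for PDE3B, which put IRS1 (7.58) above AKT2; the unions are longer than the single transcripts. The causes of the other changes were not tested. SLC2A4 and GRB14 had too few counts for a difference to be read, and the reason for their low counts was not tested.

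Deviations from the group mean correlated at r = -0.14 to 0.246 between libraries with the same replicate number, not above 0.1 for every pair, so the numbers were not taken as pairs. With a replicate block, PDE3B with LPS in scramble passed (0.47, adjusted p = 0.0076, edgeR), as did INSR with LPS in KD (0.39, adjusted p = 0.034), SLC2A4 in the interaction was 0.04, and no call among the 9 genes was lost. All genes passing with the block numbered 3260 for LPS in scramble (2274 with no block) and 2238 for LPS in KD (1835). For KD they numbered 3857 without LPS (4411) and 4636 with LPS (4292), and for the interaction 231 (219).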

Other observations

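Genes whose pattern over the 12 libraries was most like those of PIK3R1, PDE3B and IRS2 were also listed, a choice made after the values were seen. Likeness was the root mean square difference of centred log2 CPM among 11811 genes. Among the 5 nearest to PIK3R1, which varied by 0.507 around its own mean, were ADD3 at 0.132 and SEPTIN10 at 0.133. Among the 5 nearest to PDE3B, which varied by 0.859, were SCD, a fatty acid desaturase (0.266), GYG2, a glycogenin (0.267), and FABP5, a fatty acid binding protein (0.278). For IRS2, which varied by 0.933, the nearest were HERPUD1, a gene of the unfolded protein response (0.193), ABCA9 (0.195) and IER3 (0.195). The libraries share depth and groups, so these are descriptions with no test.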
